A study of Mus musculus with 18 samples.

Results

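The collagen genes were the genes with a symbol of the form Col, a number, a and a number. Of 44 genes in the count tables with such a symbol, 40 had at least 10 counts in 4 or more of the 18 libraries and were described, among 55487 genes in all and 23775 genes that passed the same filter. They fell into 11 fibrillar genes, 6 genes of the basement membrane, 7 FACIT genes (fibril-associated collagens with interrupted helices), 5 genes of the beaded filaments and 11 others (network, transmembrane, anchoring and multiplexin collagens). The filter left out Col9a1, Col25a1, Col6a4 and Col22a1. Among these, Col25a1 came closest with 10 counts in 3 libraries. Just inside, Col9a2 reached 10 counts in 4 libraries, and it was too low for every test below. Col26a1 reached 10 counts in 9 libraries, and Col24a1 and Col2a1 each did so in 10. At the other end, 30 of the 40 genes had 10 counts in all 18 libraries.

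RNA was sequenced from 2 fat depots of male mice fed chow and fasted for 4 h, with 1 mouse per library. Subcutaneous white adipose tissue (sWAT) came from mice 12 weeks old, with 4 control (Ctrl) and 4 knockout mice, and brown adipose tissue (BAT) from mice 4 weeks old, with 5 and 5. The Ctrl mice, labelled WT, were Csn8 f/f littermates, so both genotypes carried the floxed allele of Csn8 and Ctrl mice lacked only the Cre. The knockout mice, labelled Csn8A KO and written Csn8AKO here, were Csn8 f/f with a Cre driven by the adiponectin promoter, which is active in adipocytes. Fibroblasts, macrophages and vessel cells of these fat pads were not targeted by this Cre. Each depot was taken at a single age, so depot and age cannot be told apart in any comparison between BAT and sWAT.

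The sWAT libraries held 15835721 to 23109603 counts and the BAT libraries 26658593 to 66719937. The deleted gene, Cops8, encodes subunit 8 of the COP9 signalosome, a complex that removes NEDD8 from cullins. Its level in CPM (counts relative to the total of the library, scaled with TMM factors over all 18 libraries) was 31.1, 34.9, 32.7 and 33.0 in sWAT of Ctrl mice and 31.3, 25.7, 29.0 and 33.6 in Csn8AKO. These groups overlapped, and the log2 change of -0.12 was not called. In BAT it was 38.5, 41.9, 43.1, 39.1 and 47.1 in Ctrl and 29.2, 30.7, 36.2, 33.4 and 38.4 in Csn8AKO, with each Csn8AKO library below the lowest Ctrl library (log2 change -0.30 ± 0.09 SE, adjusted p = 0.021, edgeR's quasi-likelihood test). The gene total counts transcripts from all cells of the tissue, and shortened transcripts of the deleted allele as well.

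Markers matched the labelled depots. Ucp1, the uncoupling protein of brown adipocytes, stood at 1654 to 4688 CPM in BAT of Ctrl mice and 2496 to 5430 CPM in BAT of Csn8AKO mice, and at 6.65 CPM or less in every sWAT library. Adiponectin (Adipoq) was at 1053 to 1510 CPM in sWAT of Ctrl mice, 432 to 1050 CPM in sWAT of Csn8AKO mice and 654 to 811 CPM in BAT. Several libraries stood apart. Ribosomal RNA took 18.2% and 19.8% of the counts in Ctrl sWAT libraries 2 and 3 and 31.8% and 47.8% in Csn8AKO sWAT libraries 3 and 4, against 1.80% to 4.83% in the other sWAT libraries. In BAT it took 10.1% in Ctrl library 1 and 15.1% in Csn8AKO library 2, against 0.863% to 4.10% in the other BAT libraries. Lymphocyte markers were highest in Ctrl sWAT library 1 and Csn8AKO sWAT library 2. Skeletal muscle actin (Acta1) was at 28.0 and 54.6 CPM in Csn8AKO BAT libraries 1 and 5, and at 0.900 CPM or less in the other BAT libraries. Counts of called genes without the named sets of sWAT libraries, and without the BAT libraries rich in Acta1, are given for the comparisons that use them. The BAT libraries of high ribosomal RNA share were left out only singly, as every library was.

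Collagens are the main structural proteins of the matrix around cells. Their chains wind around each other in a helix that needs glycine at every turn, and they are hydroxylated and folded in the endoplasmic reticulum before secretion. Fibrillar collagens assemble into the banded fibers that bear load, FACIT collagens sit on the surface of those fibers, collagen IV forms the sheet of the basement membrane, and collagen VI forms the beaded filaments that link both. In fat, each adipocyte is wrapped in a basement membrane, while the fibrillar collagens are made mostly by fibroblasts and their progenitors.

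Promoter sequence is shown for the members on which the results turn, from RefSeq on GRCm38.p6. Each run holds the 250 bases before the start of the gene, on its own strand, with capitals for TATAAA, for the CCAAT box, for the GC box GGGCGG or for their reverse complements. Col3a1 was the most abundant collagen gene of sWAT and occupies 45311538 to 45349706 on the plus strand of chromosome 1. Col5a3 had the largest change with genotype in BAT and lies on the minus strand of chromosome 9, from 20770050 to 20815067. Col7a1 was higher in BAT than in sWAT and higher again in Csn8AKO BAT, and lies on the plus strand of chromosome 9, from 108953586 to 108984875.
Col3a1 (chr1:45311288-45311537): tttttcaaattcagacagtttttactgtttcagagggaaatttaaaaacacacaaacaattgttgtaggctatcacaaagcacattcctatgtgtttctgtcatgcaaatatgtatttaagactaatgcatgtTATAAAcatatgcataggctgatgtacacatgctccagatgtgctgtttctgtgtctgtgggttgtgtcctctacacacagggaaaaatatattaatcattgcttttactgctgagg
Col5a3 (chr9:20815068-20815317): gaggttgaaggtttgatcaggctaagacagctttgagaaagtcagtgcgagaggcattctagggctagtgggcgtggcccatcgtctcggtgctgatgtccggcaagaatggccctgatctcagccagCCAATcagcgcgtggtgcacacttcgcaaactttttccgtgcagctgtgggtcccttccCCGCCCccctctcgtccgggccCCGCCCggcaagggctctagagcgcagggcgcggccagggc
Col7a1 (chr9:108953336-108953585): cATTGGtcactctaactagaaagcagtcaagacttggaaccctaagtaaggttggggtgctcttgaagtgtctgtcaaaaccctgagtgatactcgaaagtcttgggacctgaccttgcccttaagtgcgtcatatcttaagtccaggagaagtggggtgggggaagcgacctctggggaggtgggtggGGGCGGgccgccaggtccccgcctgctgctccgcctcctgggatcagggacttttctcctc

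The Col3a1 run held a TATAAA and neither of the other motifs, the Col5a3 run a CCAAT and 2 GC boxes, and the Col7a1 run a CCAAT and 1 GC box. Over windows from 250 bases before to 50 bases after the start, 34 windows of 32 collagen genes could be matched. A GC box (GGGCGG on either strand) was found in 61.8% of them, against 35.7% of 32851 windows of all genes. CCAAT on either strand was found in 29.4%, against 37.4%, and TATAAA on either strand in 14.7%, against 13.6%. The collagen genes had passed the count filter, while the windows of all genes were taken without it. The shares are therefore not set against a like background. A match describes these letters and is not evidence of a bound factor.

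The chains of collagen IV are encoded in head-to-head pairs. Col4a1, on the minus strand of chromosome 8 from 11198423 to 11312826, and Col4a2, on the plus strand from 11312805 to 11449287, share their first 22 bases, which hold 1 GC box (capitals).
Col4a2 and Col4a1, shared first bases (chr8:11312805-11312826): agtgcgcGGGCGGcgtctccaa

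Col4a3 and Col4a4 lie 71 bases apart on chromosome 1, and Col4a5 and Col4a6 1308 bases apart on chromosome X. Col3a1 and Col5a2 are neighbours at 24614 bases, Col6a1 and Col6a2 at 85161 bases and Col6a5 and Col6a6 at 27917 bases. Whether the counting used strand is not given in the sources used here. Where exons overlap, as for Col4a1 and Col4a2, Col9a3 and Tcfl5, or Col3a1 and Gm47302, the share of reads from each gene is therefore uncertain.

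Collagen transcripts took 1.75% to 2.35% of all counts in sWAT of Ctrl mice and 0.395% to 0.453% in BAT of Ctrl mice. In Csn8AKO mice they took 1.68% to 3.48% in sWAT and 0.651% to 1.38% in BAT. The 1.68% was that of Csn8AKO sWAT library 4, in which ribosomal RNA took 47.8%. Of the counts other than ribosomal RNA, collagen transcripts took 2.26%, 2.44%, 2.18% and 2.40% in sWAT of Ctrl mice and 3.62%, 2.92%, 3.72% and 3.23% in Csn8AKO mice, with no overlap. In BAT this share was 0.399% to 0.477% in Ctrl and 0.767% to 1.40% in Csn8AKO mice. Summed per kilobase of gene length, so that genes can be compared, the collagen level was 1956, 2658, 2075 and 2228 CPM per kb in sWAT of Ctrl mice and 3218, 2105, 3484 and 3326 in Csn8AKO mice. On this scale, unlike in the share without ribosomal RNA, the sWAT groups overlapped, through Csn8AKO library 2 alone. In BAT the sum was 641, 622, 611, 557 and 542 CPM per kb in Ctrl mice and 1286, 1011, 1284, 1250 and 1611 in Csn8AKO mice. Each of the 5 Csn8AKO BAT libraries was above each Ctrl BAT library, and all BAT libraries were below all sWAT libraries.

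The makeup of this sum differed between depots. In Ctrl mice, fibrillar genes held 62.7% ± 2.27 (SD, n = 4) of the level per kb in sWAT and 40.9% ± 4.71 (SD, n = 5) in BAT, with ranges of 59.4% to 64.3% and 34.7% to 47.1% that did not overlap. Genes of the basement membrane held 18.1% ± 0.69 in sWAT and 41.4% ± 5.24 in BAT, with ranges of 17.7% to 19.1% and 34.4% to 47.7%. Per kb, both classes thus stood at near equal levels in BAT of Ctrl mice, at 245 ± 44.4 and 245 ± 18.8 CPM per kb. In sWAT the levels were 1394 ± 139 and 405 ± 71.8. Not divided by length, the shares of these classes were 46.1% and 37.0% in BAT of Ctrl mice, and 67.7% and 15.5% in sWAT. Without the most abundant member of each class, the shares per kb were 47.9% and 34.9% in BAT of Ctrl mice. Over all members per kb, beaded filament genes held 13.5% ± 1.01 in sWAT and 11.3% ± 0.72 in BAT, and FACIT genes 1.12% ± 0.25 and 2.06% ± 0.16. In Csn8AKO mice the fibrillar share was 63.0% ± 2.46 in sWAT and 45.6% ± 2.09 in BAT, and the share of the basement membrane 16.0% ± 3.06 and 36.6% ± 2.20. The fibrillar level in BAT was 589 ± 116 CPM per kb in Csn8AKO mice and that of the basement membrane 469 ± 57.7. No test was run on these sums and shares.

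**Figure D1:**
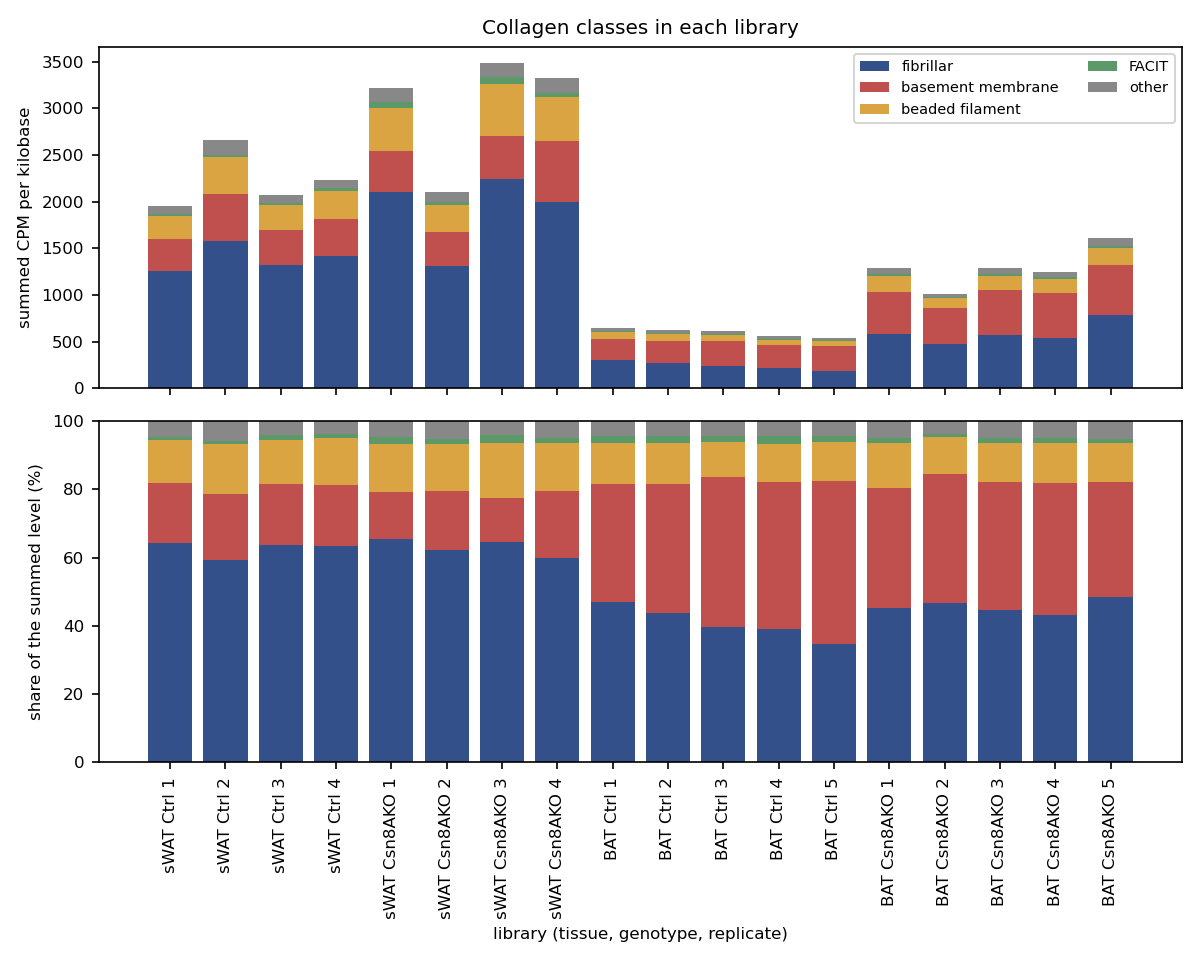
Stacked bars give, for each of the 18 libraries by group, the summed level of the collagen genes of each class in CPM per kb and the share of each class in percent. Collagen IV genes held 34.4% to 47.7% of the sum in Ctrl BAT and 17.7% to 19.1% in Ctrl sWAT, and all 5 Csn8AKO BAT sums lay above the Ctrl BAT sums.

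A few genes carried most of the level. In sWAT of Ctrl mice the order per kb was Col3a1 at 583 ± 44.4 CPM per kb, Col1a1 at 401, Col4a1 at 242, Col1a2 at 213, Col4a2 at 156 and Col6a1 at 138. In BAT of Ctrl mice it was Col4a1 at 132 ± 11.2, Col4a2 at 110, Col3a1 at 88.0 and Col1a1 at 78.3. In BAT of Csn8AKO mice Col4a1 and Col4a2 still led per kb, at 251 and 216, with Col3a1 at 205 and Col1a1 at 203. This order depends on the division by gene length, which joins all isoforms. Not divided by length, Col3a1 led in BAT of Csn8AKO mice, at 2011 CPM against 1872 CPM for Col4a1. In BAT of Ctrl mice Col4a1 then led at 986 CPM, with Col3a1 at 863 and Col4a2 at 725 CPM. Collagen III and collagen I are the major fibrillar collagens of soft tissue, and collagen IV chains 1 and 2 make the common network of basement membranes. The leading 3 genes held 55.0% of the sum in sWAT and 55.5% in BAT of Ctrl mice.

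In BAT, most of the abundant collagen genes were higher in Csn8AKO mice. Of the 39 collagen genes tested, 20 were higher and 1 was lower (adjusted p under 0.05, edgeR's quasi-likelihood test with Benjamini-Hochberg adjustment over all genes), while among all 22345 genes tested 16% were higher and 15.8% were lower. The log2 changes of the 20 ranged from 0.69 to 1.81, with a median of 1.22. Over all 39 the median was 0.95, against 0.01 over all genes. In 18 members every Csn8AKO library was above every Ctrl library, against 9.17% of all genes, and in 1 member every Csn8AKO library was below, against 12%. In bulk tissue, more cells of a type and more RNA per cell cannot be told apart, nor fewer cells and less RNA per cell.

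Among the fibrillar genes, 6 of 11 were higher in BAT of Csn8AKO mice, with a class median of 1.16. Col5a3, a chain of collagen V, which nucleates and regulates the diameter of fibrils, was at 129, 92.5, 100.8, 88.6 and 89.8 CPM in Ctrl and 376, 373, 251, 336 and 389 CPM in Csn8AKO mice. The lowest Csn8AKO library was well above the highest Ctrl library, and the change was 3.51-fold (log2 1.81 ± 0.14, adjusted p = 9.1e-07). Col3a1 was at 1038, 959, 876, 855 and 589 CPM in Ctrl and 2034, 1686, 1952, 1799 and 2586 CPM in Csn8AKO mice, again with no overlap (log2 1.25 ± 0.16, adjusted p = 5.2e-05). The chains of collagen I, the most common collagen of the body, gave log2 changes of 1.40 ± 0.19 for Col1a1 and 1.29 ± 0.17 for Col1a2. The other chains of collagen V gave 1.18 ± 0.15 for Col5a1 and 1.16 ± 0.13 for Col5a2. The remaining 5 fibrillar genes were not called. Col27a1, a fibrillar collagen known from cartilage, was at 180, 179, 129, 99.3 and 183 CPM in Ctrl and 166, 202, 162, 227 and 167 CPM in Csn8AKO mice, with overlapping groups (log2 0.29, adjusted p = 0.20). The others were Col11a1 at 0.90, Col2a1 at 0.26, Col11a2 at -0.12 and Col24a1 at -0.78 on the log2 scale.

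Of the 6 genes of the basement membrane, 3 were higher. Col4a1 was at 875, 954, 1099, 977 and 1028 CPM in Ctrl and 1825, 1527, 1927, 1925 and 2155 CPM in Csn8AKO mice (log2 0.95 ± 0.11, adjusted p = 2.9e-05). Its partner Col4a2 changed by 1.00 ± 0.11 (adjusted p = 1.5e-05), and neither gene had overlapping groups. Col4a4, a chain of the network known from kidney, changed by 0.84 ± 0.15 at levels of 2.86 to 6.63 CPM, while its head-to-head neighbour Col4a3 gave -0.01 ± 0.18 and was not called. Col4a5 and Col4a6, the X-linked pair, gave -0.54 (adjusted p = 0.091) and 0.58 (adjusted p = 0.15). Without Csn8AKO BAT libraries 1 and 5, which held the muscle transcripts, Col4a5 was called lower. Over all libraries limma voom called 4 genes of this class higher and 1 lower. Without Csn8AKO BAT library 1 alone, edgeR called 2 collagen genes lower.

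All 3 common chains of collagen VI were higher. Col6a1 was at 155, 150, 129, 126 and 130 CPM in Ctrl and 348, 230, 305, 303 and 381 CPM in Csn8AKO mice, with library 2 the lowest of the latter and still above all Ctrl libraries (log2 1.21 ± 0.12, adjusted p = 9e-06). Col6a2 changed by 1.15 ± 0.13. Col6a3, whose cleaved end is endotrophin, a fragment released in fat, changed by 1.23 ± 0.15 (adjusted p = 4.7e-05). The minor chains Col6a5 and Col6a6 gave 0.96 ± 0.47 and -0.11 ± 0.30 and were not called.

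Of the 6 FACIT genes tested, 3 were higher. Col14a1, which binds fibrils and is a marker of fibroblasts in many tissues, was at 23.6, 21.4, 23.1, 18.5 and 16.3 CPM in Ctrl and 52.2, 40.1, 50.4, 44.6 and 60.0 CPM in Csn8AKO mice (log2 1.29 ± 0.12, adjusted p = 5.2e-06). Col16a1 changed by 1.47 ± 0.17 and Col9a3 by 0.69 ± 0.20 (adjusted p = 0.016). Col12a1 was at 95.6, 90.5, 85.5, 103 and 70.5 CPM in Ctrl and 96.3, 37.9, 87.5, 118 and 80.8 CPM in Csn8AKO mice. These groups overlapped (log2 -0.05 ± 0.24, adjusted p = 0.89), and Csn8AKO library 2 was the lowest of the 10.

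Among the 11 other genes, 5 were higher and 1 was lower. Col15a1 and Col18a1, the multiplexins that lie at the outer face of basement membranes, changed by 1.47 ± 0.21 and 1.47 ± 0.17. Col7a1, which forms the anchoring fibrils of skin, was at 9.02, 17.7, 11.6, 16.3 and 16.6 CPM in Ctrl and 27.5, 33.9, 49.2, 42.0 and 41.9 CPM in Csn8AKO mice (log2 1.47 ± 0.20, adjusted p = 0.00015). The lowest Csn8AKO library, 1, was above the highest Ctrl library. Col13a1, a transmembrane collagen, changed by 1.00 ± 0.27 (adjusted p = 0.014) and Col8a2, of the short chain network, by 1.20 ± 0.42 (adjusted p = 0.043), both with overlapping groups. Col8a2 was below 1 CPM in every library and kept its call in only 2 of the 10 fits that left out 1 library each. Col23a1, another transmembrane collagen, was the 1 gene called lower. It was at 6.54, 5.73, 5.57, 6.43 and 6.34 CPM in Ctrl and 3.63, 3.39, 4.73, 4.17 and 4.06 CPM in Csn8AKO mice, with no overlap (log2 -0.59 ± 0.13, adjusted p = 0.0033). Its call was lost when libraries were scaled by total counts alone (log2 -0.45, adjusted p = 0.0598).

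The other 19 genes called higher in BAT were called in each of the 10 fits that left out 1 library. Without Csn8AKO libraries 1 and 5, 19 genes were higher and 2 lower, and 19 of the 21 calls were shared with those over all libraries. Col8a2 and Col9a3 dropped out, and Col5a3 then changed by 1.70.

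**Figure D2:**
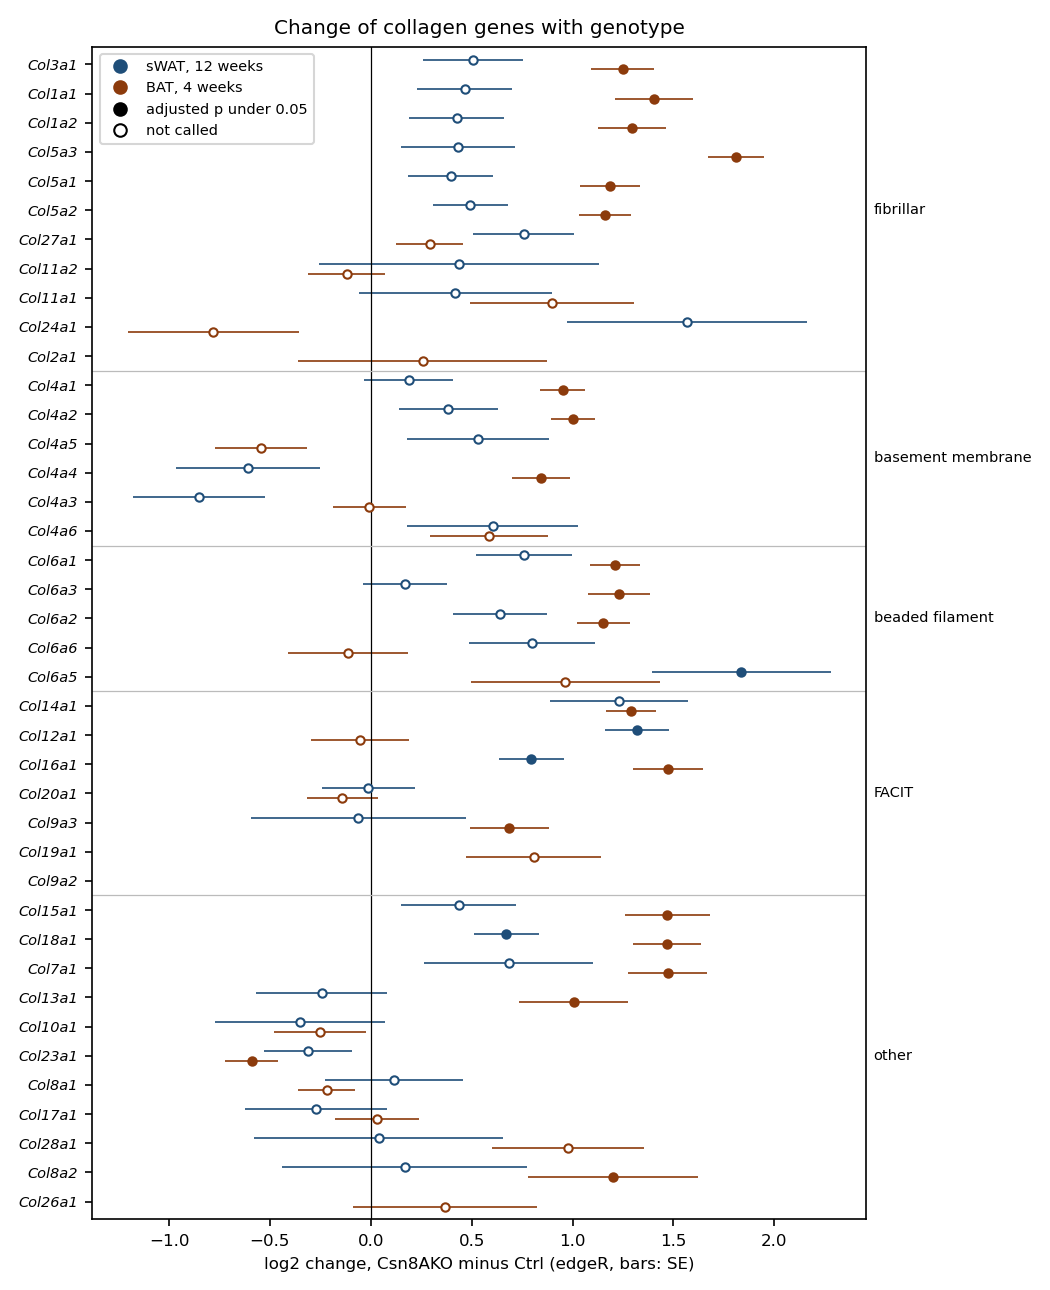
Points give the log2 change of each tested collagen gene between Csn8AKO and Ctrl mice by class, with the SE as bars, in sWAT (blue) and BAT (brown); filled points passed an adjusted p of 0.05. Called changes in BAT ran from 0.69 to 1.81 with Col23a1 alone below 0, and 4 genes were called in sWAT.

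In sWAT, 4 of 36 collagen genes tested were higher in Csn8AKO mice and 0 were lower, where 2.3% and 3% of all 18843 genes tested were higher and lower. The 4 were Col12a1 and Col16a1, both FACIT genes, Col18a1 and Col6a5. At an unadjusted p under 0.05 edgeR's quasi-likelihood test gave 11 members higher and 1 lower, Col4a3, which was named after its values were seen. DESeq2, whose false calls exceeded the threshold on simulated data, called 8 higher and 0 lower, and limma voom 13 higher and 1 lower. Throughout, no share of all genes is given at an unadjusted p, by DESeq2, by limma voom, or in a fit that left out libraries or changed another setting. Such counts can therefore not be set against a share and are not read as a result about the members. Without Ctrl library 1 and Csn8AKO library 2, those of highest lymphocyte marker level, 7 members were higher and 0 lower, and 3 of the 4 calls were among them (Col12a1, Col16a1 and Col18a1). The member median was 0.43 on the log2 scale, against 0.03 over all genes. In 5 members every Csn8AKO library was above every Ctrl library, against 5.27% of all genes.

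Col12a1, which bridges fibrils and is known from tissues under load, was at 17.0, 24.2, 26.3 and 26.2 CPM in Ctrl and 58.4, 60.0, 62.6 and 48.4 CPM in Csn8AKO mice. The groups were far apart, with a change of 2.49-fold (log2 1.32 ± 0.16, adjusted p = 0.0027). It was called in all 8 fits that left out 1 library, with changes of 1.20 to 1.38. Without the 4 libraries of highest ribosomal RNA share, which left 2 mice per group, it changed by 1.50 and was not called (adjusted p = 0.47), and 0 collagen genes were called.

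The other 3 calls depended on single libraries. Without Ctrl library 3, Ctrl library 4, Csn8AKO library 1 or Csn8AKO library 3, Col12a1 was the 1 gene called, and without Csn8AKO library 2, 8 genes were called. Col16a1 was at 26.9, 29.7, 26.2 and 29.3 CPM in Ctrl and 47.8, 34.6, 64.0 and 46.2 CPM in Csn8AKO mice (log2 0.80 ± 0.16, adjusted p = 0.022). Col18a1, the source of endostatin, was at 177, 263, 180 and 197 CPM in Ctrl and 327, 271, 345 and 338 CPM in Csn8AKO mice (log2 0.67 ± 0.16, adjusted p = 0.039). Both had no overlap, with Csn8AKO library 2 the lowest of its group. Col16a1 lost its call without Ctrl library 2, 3 or 4 or Csn8AKO library 1 or 3, with adjusted p of 0.0543 to 0.0848, and Col18a1 without Ctrl library 1, 3 or 4 or Csn8AKO library 1, 3 or 4, with 0.0775 to 0.148. Col6a5 was at 1.53, 3.52, 2.06 and 1.32 CPM in Ctrl and 4.58, 13.6, 5.47 and 5.30 CPM in Csn8AKO mice (log2 1.84 ± 0.44, adjusted p = 0.042). Without Csn8AKO library 2, the highest by far and the one rich in lymphocyte markers, it changed by 1.28 ± 0.33 and the adjusted p was again 0.042. Its call was lost without Ctrl library 1, 3 or 4 or Csn8AKO library 1, 3 or 4, with adjusted p of 0.0504 to 0.122. Without both libraries of highest lymphocyte marker level it changed by 1.16 (adjusted p = 0.056).

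None of the 10 fibrillar genes tested in sWAT was called, although all 10 log2 changes, and 53.3% of those of all genes, were above 0, with the members between 0.40 and 1.57 (edgeR's quasi-likelihood test, with adjusted p of 0.12 or more). At an unadjusted p under 0.05, 3 of them were higher, while DESeq2 called 1 higher and limma voom 6. These counts too have no share of all genes to be set against. Col3a1 was at 5527, 6283, 5266 and 5816 CPM in Ctrl and 10133, 5431, 8609 and 8015 CPM in Csn8AKO mice. Library 2 was the 1 Csn8AKO library within the range of Ctrl, and the change of 0.51 ± 0.25 did not pass (adjusted p = 0.29). Col27a1 was at 19.9, 19.7, 16.5 and 17.6 CPM in Ctrl and 20.0, 45.8, 31.7 and 23.8 CPM in Csn8AKO mice (log2 0.76 ± 0.25, adjusted p = 0.12), the 1 member with groups apart and no call. Col1a1 gave 0.47 and Col5a3 0.43 on the log2 scale.

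None of the 6 genes of the basement membrane was called in sWAT by edgeR's quasi-likelihood test or DESeq2, while limma voom called Col4a3 lower (log2 -0.97, adjusted p = 0.049), the 1 gene at an unadjusted p under 0.05. Col4a1 was at 1549, 2183, 1674 and 1806 CPM in Ctrl and 1904, 1593, 1907 and 2694 CPM in Csn8AKO mice, with overlapping groups (log2 0.19 ± 0.22, adjusted p = 0.69). Col4a3 and Col4a4 gave -0.85 and -0.61 and Col4a5 and Col4a6 0.53 and 0.60, with no call by edgeR. Col6a1 gave 0.76 (adjusted p = 0.098) and Col6a3 0.17 (adjusted p = 0.71). Of the beaded filament genes edgeR called 1 higher, DESeq2 3 and limma voom 3, with 4 at an unadjusted p under 0.05. Of the FACIT genes edgeR called 2 higher, DESeq2 3 and limma voom 3, with 3 at an unadjusted p under 0.05. Col14a1 was at 91.1, 105, 144 and 154 CPM in Ctrl and 357, 134, 454 and 208 CPM in Csn8AKO mice, which overlapped through library 2 (log2 1.23 ± 0.34, adjusted p = 0.073).

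**Figure D3:**
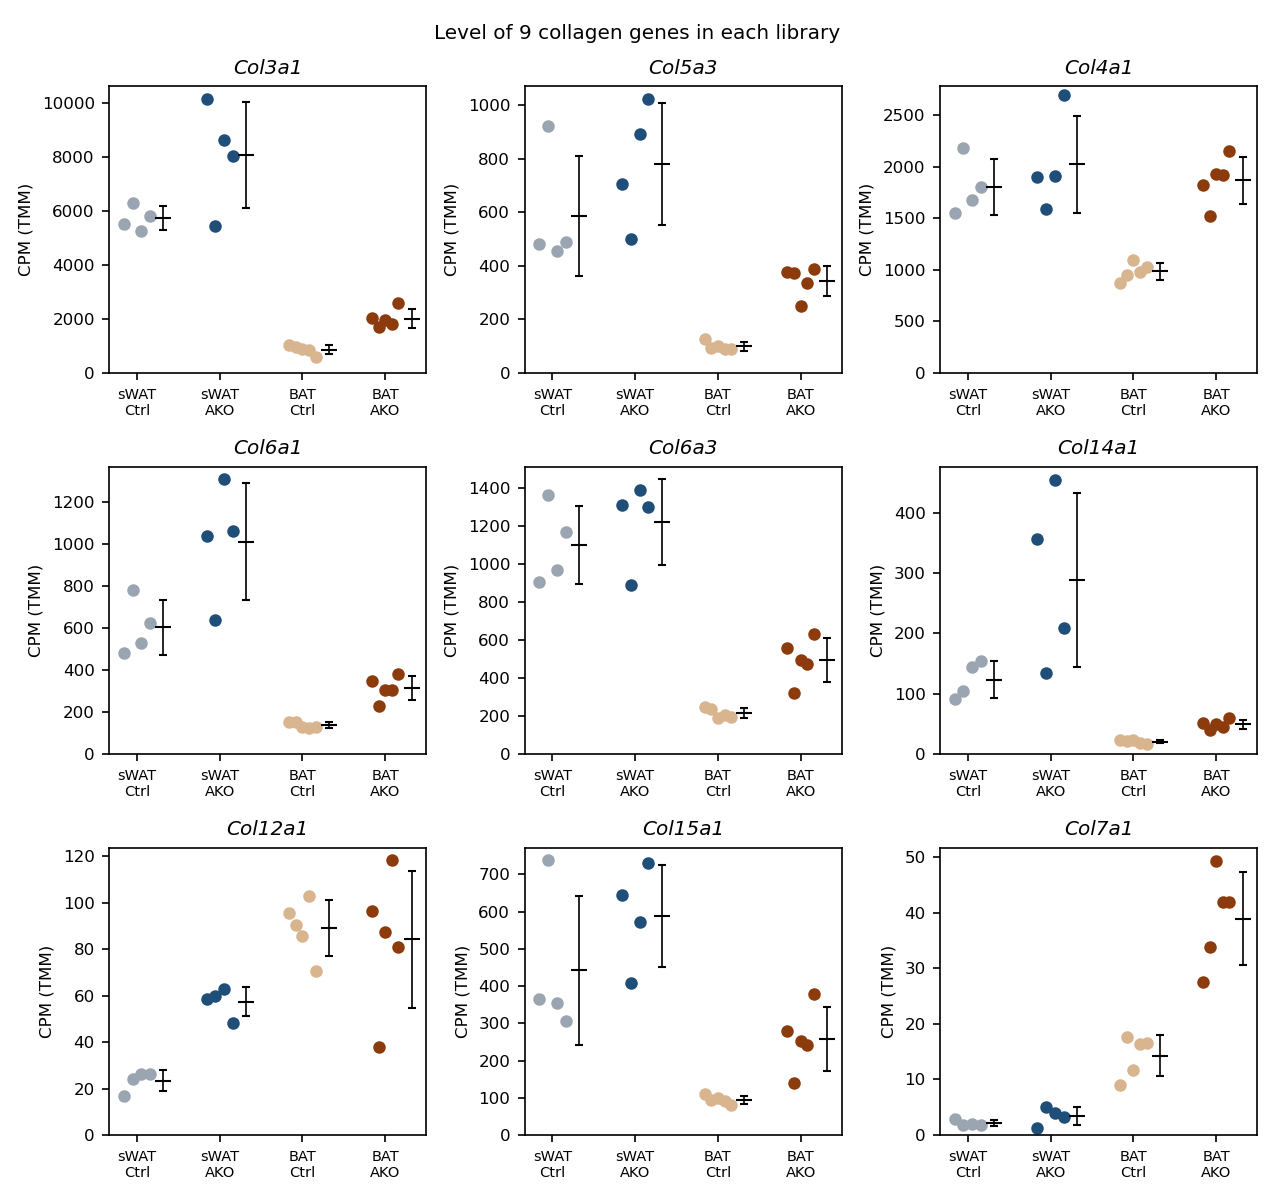
Each panel gives the level of 1 collagen gene in CPM for every library of the 4 groups (AKO stands for Csn8AKO), with the group mean and SD. Every gene shown except Col12a1 separated the genotypes in BAT. In sWAT Col12a1 alone did, with means of 23.4 ± 4.40 CPM in Ctrl and 57.3 ± 6.23 CPM in Csn8AKO mice.

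Side by side, Col16a1 and Col18a1 were called higher in both depots, 18 genes were called higher in BAT and not in sWAT, and Col12a1 and Col6a5 were called higher in sWAT and not in BAT. A call in one depot alone does not show a difference, so the change in BAT minus the change in sWAT was tested over all 18 libraries. Of 39 members tested, 2 were higher and 1 was lower, where 1.61% and 0.755% of all 22509 genes were. The change was larger in BAT for Col5a3, by 1.37 ± 0.32 (adjusted p = 0.024), and for Col6a3, by 1.05 ± 0.26 (adjusted p = 0.035). It was smaller in BAT for Col12a1, by -1.38 ± 0.31 (adjusted p = 0.021). Col4a4 gave 1.43 ± 0.38 (adjusted p = 0.051) and Col4a1 0.75 (adjusted p = 0.091), and neither was called by edgeR. For this difference DESeq2 called 7 members higher and 2 lower, and limma voom 5 and 2. At an unadjusted p under 0.05 edgeR gave 15 higher and 3 lower. Of the 18 fits that left out 1 library, Col12a1 was called in 18, Col5a3 in 16 and Col6a3 in 7. Col5a3 lost its call without Csn8AKO sWAT library 1 (adjusted p = 0.0534) or Csn8AKO BAT library 5 (just above 0.05), and Col6a3 had an adjusted p of 0.0519 to 0.0803 in the fits that lost it. Without the 2 BAT libraries rich in muscle transcripts none of the 3 was called (adjusted p = 0.0976 for Col5a3, 0.152 for Col6a3 and 0.0595 for Col12a1), with changes of 1.26, 0.85 and -1.43. Without the 2 sWAT libraries rich in lymphocyte markers Col12a1 gave -1.22 (adjusted p = 0.0643), and Col5a3 and Col6a3 kept their calls among 3 members higher and 1 lower. Without the 4 sWAT libraries of highest ribosomal RNA share, Col5a3 kept its call. Col6a3 and Col12a1 did not (adjusted p = 0.119 and 0.115), though their changes of 1.11 and -1.54 were no smaller than over all libraries.

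Between depots, Ctrl mice had lower levels of most collagen genes in BAT at 4 weeks than in sWAT at 12 weeks. Of 39 members tested, 24 were lower and 8 higher in BAT, where 27% and 25.7% of all 22381 genes were. The groups did not overlap for 21 of the lower members, against 19.5% of all genes, and for 8 higher members, against 27%. All 5 beaded filament genes and all 6 genes of the basement membrane were lower, with class medians of -2.26 and -1.31. Among the fibrillar genes 7 were lower and 2 higher, with a median of -2.49. Without the sWAT libraries of highest ribosomal RNA share 24 members were lower and 7 higher, and without those rich in lymphocyte markers 22 and 8.

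The genes lower in BAT included all chains of collagens I, III and V. Col3a1 was 7.26-fold lower in BAT (log2 -2.86 ± 0.17, adjusted p = 2.5e-08). Col1a2 gave -2.97, Col5a2 -2.76, Col5a1 -2.58 and Col1a1 -2.49. Of the basement membrane, Col4a4 showed the largest difference at -3.02 ± 0.15, from 17.1 to 28.1 CPM in sWAT and 2.86 to 3.59 CPM in BAT. The main chains differed less, with Col4a1 at 875 to 1099 CPM in BAT and 1549 to 2183 CPM in sWAT (adjusted p = 3.1e-05) and Col4a2 at -0.64 ± 0.14. Col18a1 was at -3.01 ± 0.14 and Col15a1 at -2.35 ± 0.23.

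The 8 genes higher in BAT were Col27a1, Col11a2, Col12a1, Col19a1, Col20a1, Col7a1, Col13a1 and Col8a1. Col27a1, at 16.5 to 19.9 CPM in Ctrl sWAT and 99.3 to 183 CPM in Ctrl BAT, was 7.63-fold higher (log2 2.93 ± 0.19, adjusted p = 1e-07). Col7a1 was at 1.71 to 2.94 CPM in sWAT and 9.02 to 17.7 CPM in BAT (log2 2.61 ± 0.24). Col11a2, a chain of the minor fibrillar collagen of cartilage, was at 1.22 to 7.21 CPM in sWAT and 15.2 to 23.6 CPM in BAT (log2 2.47 ± 0.45, adjusted p = 0.0014). Col12a1 gave 1.80 ± 0.15 and Col13a1 1.62 ± 0.22. The higher genes thus came from the fibrillar (2), FACIT (3) and other (3) classes. Of the 4 tested chondrocyte or bone markers, 0 were higher and 1 was lower in BAT of Ctrl mice by edgeR's quasi-likelihood test, with the same counts at an unadjusted p under 0.05, by DESeq2 and by limma voom. Among all genes tested by edgeR, 25.7% were higher and 27% lower.

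In Csn8AKO mice, whose libraries do not enter the comparison in Ctrl mice, 20 members were lower and 6 higher in BAT, where 24.9% and 23.2% of all 20815 genes were. Of the members, 19 were lower and 6 higher in both genotypes. The share of all genes called in both genotypes is not given here. In Csn8AKO mice 20 were lower and 6 higher without the sWAT libraries of highest ribosomal RNA share, 20 and 7 without those rich in lymphocyte markers, and 20 and 6 without the BAT libraries rich in muscle transcripts. Col7a1 was 10.8-fold higher in BAT (log2 3.43 ± 0.35, adjusted p = 1.4e-05), Col13a1 gave 2.90 ± 0.36, Col27a1 2.50 ± 0.24 and Col11a2 1.95 ± 0.48. Col18a1 gave -2.19, Col3a1 -2.10, Col1a2 -2.08 and Col5a2 -2.07. The main collagen IV chains were not called, with Col4a1 at -0.22 ± 0.20 (adjusted p = 0.39) and Col4a2 at 0.00 ± 0.21 (adjusted p = 0.99). Col12a1, higher in BAT of Ctrl mice, gave 0.45 ± 0.25 (adjusted p = 0.16), with levels of 48.4 to 62.6 CPM in sWAT and 37.9 to 118 CPM in BAT. Col24a1 was called lower in Csn8AKO mice alone, at -2.91, and it reached 1.18 CPM at most.

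**Figure D4:**
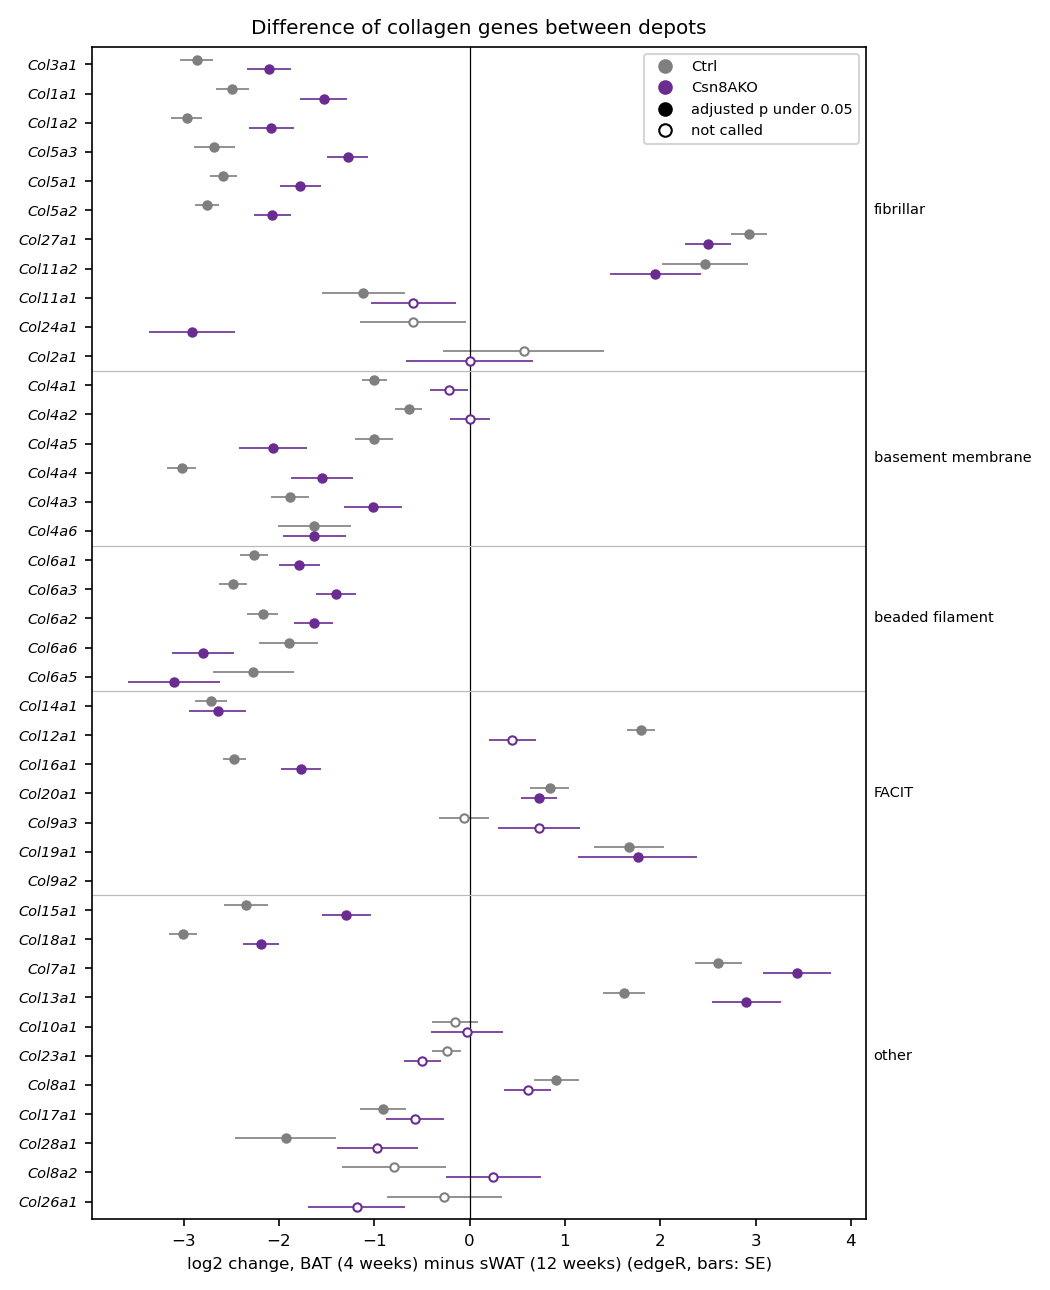
Points give the log2 difference of BAT minus sWAT for each tested collagen gene by class, with the SE as bars, in Ctrl (grey) and Csn8AKO (purple) mice; filled points passed an adjusted p of 0.05. Collagen I, III, V and VI chains lay below 0 in both genotypes, and Col27a1, Col7a1, Col11a2 and Col13a1 above 0.

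Ratios between chains that assemble together were read per library. Per kb, Col4a1 stood to Col4a2 at 1.57 ± 0.119 in sWAT and 1.21 ± 0.042 in BAT of Ctrl mice, and at 1.37 ± 0.092 and 1.16 ± 0.021 in Csn8AKO mice. Col1a1 stood to Col1a2 at 1.89 ± 0.159, 1.95 ± 0.320, 2.61 ± 0.154 and 2.82 ± 0.152 in Ctrl sWAT, Csn8AKO sWAT, Ctrl BAT and Csn8AKO BAT. The length used for Col1a2 joins all its isoforms, so the level of this ratio is not the ratio of molecules. Col6a1 stood to Col6a3 at 1.49 ± 0.050 in Ctrl sWAT, 2.23 ± 0.256 in Csn8AKO sWAT, 1.76 ± 0.088 in Ctrl BAT and 1.75 ± 0.116 in Csn8AKO BAT. The ratio thus differed between genotypes by more than its SD in sWAT and by less in BAT. No test was run on the ratios.

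Genes that make, bind or accompany collagen were read from fixed lists. Among all genes tested in BAT, 16% were higher in Csn8AKO mice and 15.8% lower. In BAT of Csn8AKO mice 15 of 17 partners of fibrils (fibronectin, small proteoglycans and the like) were higher and 0 lower, among them Fn1 at 1.81 ± 0.11 (adjusted p = 1.2e-07) and Bgn, which encodes biglycan, at 1.05. Of 12 enzymes for propeptide cleavage and crosslinking, 8 were higher and 1 lower. Bmp1, which removes the C-propeptide, changed by 0.93, and its enhancer Pcolce by 1.16, while Adamts3, which removes the N-propeptide, gave -1.14 (adjusted p = 0.00068). Of 21 genes for hydroxylation, glycosylation and folding in the endoplasmic reticulum, 9 were higher and 0 lower, with Serpinh1, the collagen chaperone, at 0.62 ± 0.10 and P4hb, a subunit of prolyl hydroxylase, at 0.67 ± 0.11. The medians of the 3 lists were 0.90, 0.90 and 0.21.

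Of 10 collagen receptors 5 were higher in BAT and 1 lower, where 16% and 15.8% of all genes were. Mrc1, an endocytic receptor of macrophages, changed by 1.24 and Itga11, an integrin chain for fibrillar collagen, by 1.17, while Itga1, an integrin chain for collagen IV, gave -0.41 (adjusted p = 0.0034). Of 16 laminins and other genes of the basement membrane 8 were higher and 1 lower. Nid1, which encodes nidogen, changed by 0.96 (adjusted p = 1.7e-05) and Agrn, which encodes agrin, by -0.33 (adjusted p = 0.044).

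In sWAT, 2.3% of all genes tested were higher and 3% lower. There 0 of 21 folding genes and 0 of 12 propeptide and crosslinking genes were called in either direction by edgeR's quasi-likelihood test, with medians of 0.26 and 0.49. At an unadjusted p under 0.05, 4 and 7 of them were higher and 0 lower, DESeq2 called 0 and 4 higher, and limma voom 2 and 5. Of the partners of fibrils 2 of 17 were higher, Postn at 1.48 (adjusted p = 0.0087) and Lum at 1.26, while 8 were higher at an unadjusted p under 0.05, 4 by DESeq2 and 5 by limma voom. Of 10 receptors 2 were higher, Itga2 at 1.05 and Mrc1 at 0.84, and Itga1 was lower at -0.89 (adjusted p = 0.0063). At an unadjusted p under 0.05, 5 receptors were higher, with 2 by DESeq2 and 4 by limma voom. Of 16 laminin and related genes 1 was higher. The change differed between depots for Lama3, by 1.25 (adjusted p = 0.0073), Thbs2, by 0.99, Comp, by 1.23, P4ha2, by 1.02, and Adamts3, by -2.31 (adjusted p = 0.007).

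Between depots, 16 of 17 partners of fibrils, 11 of 12 propeptide and crosslinking genes and 16 of 21 folding genes were lower in BAT of Ctrl mice, with list medians of -2.38, -2.23 and -0.76. The receptors had 2 higher and 8 lower of 10, and the laminin list 5 higher and 10 lower of 16. Among all genes tested in Ctrl mice, 25.7% were higher and 27% lower in BAT. In Csn8AKO mice the lower counts were 15 of 17, 11 of 12 and 16 of 22, the receptors again had 2 higher and 8 lower, and the laminin list had 5 higher and 8 lower. Among all genes tested in Csn8AKO mice, 23.2% were higher and 24.9% lower.

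Markers of other cell types moved with the collagen genes in BAT. There 16% of all genes were higher and 15.8% lower, and in sWAT 2.3% and 3%. In BAT of Csn8AKO mice 13 of 13 fibroblast or progenitor markers were higher, with a median of 0.94. Dpt, which encodes dermatopontin, changed by 1.37 and Fbln1, which encodes fibulin 1, by 1.30. Their summed level was 364 to 401 CPM per kb in Ctrl and 459 to 848 in Csn8AKO mice, with Gsn the most abundant. In sWAT 0 of the 13 were called by edgeR's quasi-likelihood test in either direction, with 7 higher and 1 lower at an unadjusted p under 0.05, 3 and 1 by DESeq2 and 6 and 1 by limma voom. There the sum was 3679 to 5216 CPM per kb in Ctrl and 1438 to 3487 in Csn8AKO mice, lowest in library 2. The sum was thus lower in each Csn8AKO library than in each Ctrl library, while the median log2 change of the list was 0.54. Gsn, which encodes gelsolin and which adipocytes also express, gave -1.05 (adjusted p = 0.074). None of the fibroblast markers is a collagen gene. Their part in the results was not tested.

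Of the 10 macrophage markers 8 were higher in BAT and 7 in sWAT, where 16% and 2.3% of all genes were. The medians of these markers were 1.44 and 1.08. Cd68 changed by 2.52 and Lyz2 by 2.81 in BAT, and Adgre1 by 1.31 and Gpnmb by 1.87 in sWAT. The sum, led by Lyz2, was 32.8 to 47.2 CPM per kb in Ctrl BAT and 148 to 244 in Csn8AKO BAT, and 329 to 455 and 658 to 1211 in sWAT. Their part in the results was not tested.

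The adipocyte markers gave 1 higher and 2 lower of 12 in BAT and 5 lower in sWAT, where Pnpla2 gave -1.28 and Cfd -1.46. Their sum, led by Cfd, was 14453 to 18198 CPM per kb in Ctrl sWAT, 3710 to 9198 in Csn8AKO sWAT, 6689 to 8374 in Ctrl BAT and 5825 to 7441 in Csn8AKO BAT. Brown adipocyte markers gave 1 higher (Elovl3, 3.34) and 1 lower (Otop1, -0.81) of 10 in BAT by edgeR, and 5 of 8 were lower in sWAT, with Cidea at -7.52. In BAT DESeq2 and an unadjusted p under 0.05 each gave 1 higher and 3 lower, and limma voom 3 and 3. In sWAT DESeq2 gave 0 higher and 6 lower, and limma voom 1 and 6. Among all genes tested by edgeR, 16% were higher and 15.8% lower in BAT, and 2.3% and 3% in sWAT.

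Endothelial markers had 4 of 10 higher in BAT and 0 called in sWAT by edgeR, where 1 was lower at an unadjusted p under 0.05 and by DESeq2, and 0 by limma voom. Among all genes tested by edgeR, 16% were higher and 15.8% lower in BAT, and 2.3% and 3% in sWAT. Mural markers had 4 of 8 higher and 1 lower in BAT and 2 lower in sWAT. Of the myofibroblast markers 3 of 7 were higher and 1 lower in BAT, and 1 of 6, Postn, was higher in sWAT. Schwann cell markers had 5 of 7 higher and 1 lower in BAT and 1 higher in sWAT by edgeR, where 4 were higher at an unadjusted p under 0.05, 2 by DESeq2 and 1 by limma voom. Of 8 proliferation genes 6 were higher in BAT. In sWAT edgeR called 1 of them higher, DESeq2 5 and limma voom 6, and 7 were higher at an unadjusted p under 0.05. In BAT 2 of 4 chondrocyte or bone genes, 1 of 2 epithelial genes and 0 of 5 erythroid genes were higher, and in sWAT none of these lists held a call by edgeR, DESeq2 or limma voom or a gene at an unadjusted p under 0.05. The part of these cells in the results was not tested.

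Among all genes tested by edgeR in BAT, 16% were higher and 15.8% lower. Lymphocyte markers gave 2 higher and 1 lower of 10 in BAT and 0 called in sWAT by edgeR, where 1 was higher at an unadjusted p under 0.05, by DESeq2 and by limma voom. Their sum in sWAT was 206, 65.3, 34.7 and 43.3 CPM per kb in Ctrl and 107, 396, 89.9 and 118 in Csn8AKO mice. Skeletal muscle markers gave 2 higher of 5 tested in BAT, Acta1 at 5.48 and Tnnt3 at 5.24, and none among 9 in sWAT by edgeR, DESeq2, limma voom or at an unadjusted p under 0.05. In BAT DESeq2 called 4 and limma voom 0. Their sum in BAT was 1.45 to 2.01 CPM per kb in Ctrl mice. In Csn8AKO mice it was 49.3 and 88.1 in libraries 1 and 5, and 1.10, 2.41 and 2.05 in libraries 2, 3 and 4. The higher collagen genes in BAT were as many, within 1, without libraries 1 and 5.

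**Figure D5:**
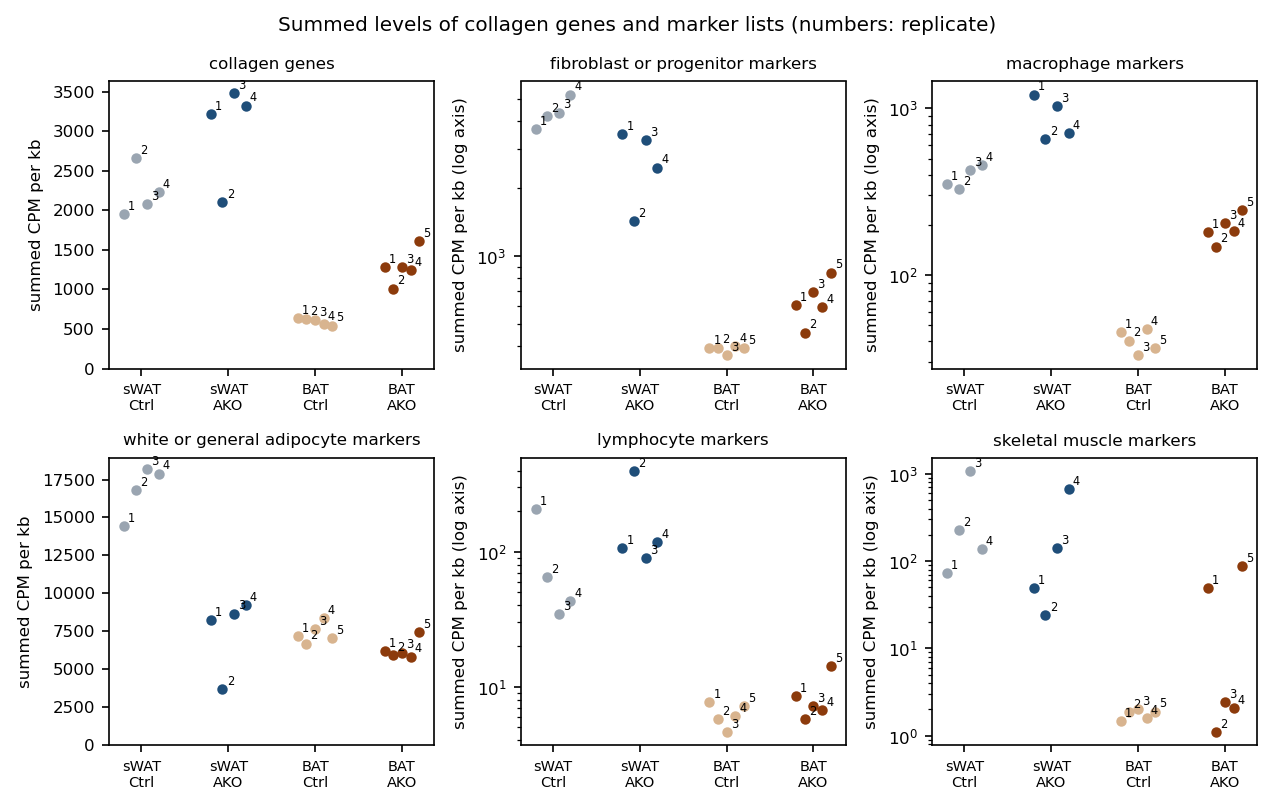
Panels give the summed level in CPM per kb of the collagen genes and of 5 lists of cell type markers in each library, with the replicate number at each point; some axes are logarithmic, as labelled. Fibroblast and macrophage sums were higher in all 5 Csn8AKO BAT libraries than in Ctrl BAT. The muscle sum was 49.3 and 88.1 in Csn8AKO BAT libraries 1 and 5 and 1.10, 2.41 and 2.05 in libraries 2, 3 and 4, against 1.45 to 2.01 in Ctrl BAT.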

How the data were processed

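The authors made rRNA-depleted libraries (RNase H), sequenced them as paired reads of 150 bases, aligned them with STAR to the primary assembly of Ensembl release 101 (GRCm38) and deposited raw read counts per gene from featureCounts, one table per mouse. Whether strand was used in counting is not given in the sources used here. The counts were not normalized.

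Samples were grouped by the tissue and genotype of their labels. The deposited counts were tested with edgeR 4.0.16 (R 4.3.3): TMM factors, filterByExpr (minimum count 10, minimum total 15), a robust quasi-likelihood test and p-values adjusted by Benjamini-Hochberg over every gene tested, with calls at an adjusted p under 0.05. A log2 change with its SE is given for Csn8AKO minus Ctrl in each depot, for the difference between these changes over all 18 libraries, and for BAT minus sWAT in each genotype. CPM used TMM factors over all libraries, and levels between genes were compared per kilobase of gene length. P-values measure the spread between mice. No library pair agreed within sampling noise. Within a depot, a two-sided exact permutation test on total counts gave p = 0.943 (sWAT) and 0.103 (BAT) and the rRNA share 0.343 and 0.635, where 4 against 4 and 5 against 5 cannot go below 0.0286 and 0.00794. Gene symbols came from GENCODE M21, which held the position of all 40 members unchanged.

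Alternatives were size factors by RLE or total counts, no filter, no rRNA and mitochondrial genes, DESeq2 1.42.0, limma 3.58.1 (voom, with weights for library quality), a joint fit of all 4 groups, the replicate number as a block, each library left out, and, chosen after seeing the data, 3 sets of libraries left out. The fits by edgeR, DESeq2 and limma voom were checked on simulated data for each comparison, and the other alternatives were not. Each check was a single draw with the spread estimated by edgeR, in which 200 genes changed by a log2 of 2. In these draws the share of false calls exceeded the threshold in every comparison with DESeq2 and in that between depots in Csn8AKO mice with edgeR. The higher counts of DESeq2 are read with this limit. The draws used edgeR's own estimates and a set number of changed genes, unlike the data, so they do not rank the tools on these data. The members, the lists and the tests were chosen with earlier results of these data known. Named genes were, per class, the 2 of highest level, per comparison up to 5 called members in each direction of smallest adjusted p, and per list up to 2 called genes in each direction. Protein repeats were planned and are not analysed here, and 1 listed gene is not reported here.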

Additional observations from a re-analysis of the deposited data

Results flagged for a closer look

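Single libraries lay far from the other libraries of their group in 6 of 92 groups of values examined, where chance gives about 1 in 20. Ctrl sWAT library 2 was high for Col15a1, at 738 CPM against 308 to 366 CPM in the other 3, for Col4a2, at 1381 CPM against 878 to 955 CPM, and for Col5a3, at 922 CPM against 455 to 489 CPM. Csn8AKO sWAT library 2 was high for Col11a2, at 10.1 CPM against 2.16 to 2.95 CPM, and for Col6a5, at 13.6 CPM against 4.58 to 5.47 CPM. Ctrl BAT library 2 was high for Col20a1, at 17.1 CPM against 8.61 to 11.1 CPM. The change with genotype differed between the depots by 1.37 for Col5a3, 1.05 for Col6a3 and -1.38 for Col12a1 on the log2 scale (BAT minus sWAT, edgeR's quasi-likelihood test). Of these, Col5a3 involves the Ctrl sWAT library 2 named above, and without that library Col5a3 kept its call while Col6a3 gave 0.93 (adjusted p = 0.0803).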

How the results depend on the processing

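The alternatives followed 33 of the 86 called changes, those named by the rule. Of their 640 values 0 reversed, 588 kept their side of the threshold and 52 lost the call. Losses among the other called changes, such as Col8a2 in BAT, are not in this count. In BAT, 18 to 22 genes were higher under every alternative (19 to 22 with 1 library left out), and the 1 lower became 0 with library size alone and 2 with limma voom, 2 without the 2 BAT libraries rich in muscle transcripts and 1 to 2 with 1 library left out. In sWAT the 4 higher genes became 2 with library size alone, 8 with DESeq2, 13 with limma voom, 8 with all 4 groups in one fit, 0 without the 4 libraries of highest rRNA share, 7 without the 2 libraries rich in lymphocyte markers and 1 to 8 with 1 library left out. The 0 lower became 1 with limma voom. For the difference between depots the 2 higher genes became 5 with library size alone, 7 with DESeq2, 5 with limma voom, 1 without the libraries of highest rRNA share, 0 without the libraries rich in muscle transcripts and 0 to 5 with 1 library left out. The 1 lower became 0 with library size alone, 2 with DESeq2, 2 with limma voom, 0 without the libraries of highest rRNA share, 0 without those rich in muscle transcripts and 1 to 2 with 1 library left out. The cause of these shifts was not tested. Library size alone moved the median of all genes by 0.13 in BAT, 0.22 in the difference between depots and -0.19 between depots in Ctrl mice. Depot counts stayed within 1.5 times, at 8 higher and 22 to 24 lower in Ctrl and 5 to 7 and 19 to 21 in Csn8AKO mice with 1 library left out.

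With the replicate number as a block, 2 genes were higher in sWAT and 0 in the difference between depots (adjusted p = 0.119 for Col5a3 and 0.156 for Col6a3). Deviations from the group means correlated by -0.42 to 0.24 in sWAT and -0.13 to 0.14 in BAT between samples of one number. Of these samples, 2 of 5 in BAT and 0 of 4 in sWAT correlated best with their own number. Such correlations cannot show whether mice of one number were littermates or processed together, so a pairing by number remains unsettled.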

Other observations

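Col6a4, a chain of collagen VI left out by the count filter, had 97 counts in Ctrl sWAT library 1 and 295 counts in Csn8AKO sWAT library 2, and 7 counts or fewer in each of the other 16 libraries. These are also the 2 sWAT libraries of highest lymphocyte marker level, at 206 and 396 CPM per kb.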
